A study of Schizosaccharomyces pombe with 8 samples.

Results

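The mRNAs described here encode the enzymes that carry sugar carbon from fructose-1,6-bisphosphate to ethanol in the fission yeast Schizosaccharomyces pombe. The 10 rows were chosen by their gene identifiers as members of glycolysis and ethanol fermentation, out of 6973 named features and 5105 mRNAs counted in each of 8 libraries. They are fba1 (SPBC19C2.07), tpi1 (SPCC24B10.21), tdh1 (SPBC32F12.11), gpd3 (SPBC354.12), pgk1 (SPBC14F5.04c), gpm1 (SPAC26F1.06), eno101 (SPBC1815.01), pyk1 (SPAC4H3.10c), pdc101 (SPAC1F8.07c) and adh1 (SPCC13B11.01). All 10 passed the filter on low counts. By identifier on the reference assembly ASM294v3, pdc101 spans chromosome I from 101715 to 103597, pyk1 from 3844743 to 3846675 and gpm1 from 5173864 to 5174654, all on the minus strand. On chromosome II lie gpd3 (578117 to 580056), fba1 (1688321 to 1689599), eno101 (2201196 to 2202652) and tdh1 (2807595 to 2809051) on the plus strand and pgk1 (4157821 to 4159461) on the minus strand. tpi1 (939913 to 940869) and adh1 (1591292 to 1592889) are on the plus strand of chromosome III. Only gpd3 has an annotated intron.

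The experiment was seqRIP-seq, in which RNA was sequenced after 2 successive immunoprecipitations, to find transcripts held by the RNA-binding proteins Mmi1 and Mei2 at once. The strain of interest carried kanMX::Pnmt41-TAP-Mmi1 and natMX::Pnmt1-3xFLAG-Mei2, and the negative control carried kanMX::Pnmt41-GFP-Mmi1 with the same natMX::Pnmt1-3xFLAG-Mei2. In both, Mei2 was thus overexpressed (nmt1 is a strong promoter and nmt41 a mild one) in mitotic cells, where it is normally scarce. Cells grew at 30 °C in minimal medium (EMM) to exponential phase and were crosslinked with 0.2% formaldehyde, and lysates went over IgG, TEV protease and anti-FLAG. The control has no TAP tag for IgG to hold, so its immunoprecipitate (IP) measures what the purification retains without a TAP tag on Mmi1. It still carries 3xFLAG-Mei2, the target of the anti-FLAG step. Each strain gave 2 biological replicates of IP and of whole-cell extract (WCE), and rRNA was depleted from the WCE only.

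Glycolysis splits a hexose into triose phosphates and oxidises them to pyruvate, which fermenting yeast converts to acetaldehyde and then to ethanol to regenerate NAD+. Its enzymes are among the most abundant proteins of growing yeast, and their mRNAs are long-lived, heavily translated and made throughout vegetative growth. Mmi1 is a YTH-family protein that recognises the RNA motif UNAAAC and sends meiotic transcripts to degradation during mitosis, and Mei2 is an RNA-binding protein that starts meiosis.

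Of the 10 annotated spans, 4 held a UNAAAC on the sense strand and 6 (fba1, tpi1, tdh1, pgk1, gpm1 and pyk1) held 0. The 7 sites are printed because they are the only places in these annotated spans with the letters that Mmi1 reads, and 1 of them lies in an intron. Each line gives 25 bases of reference sequence as RNA, with the motif in capitals.

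pdc101, 5′-most site, coding sequence: ggcucgcccUCAAACcguuguuccc
pdc101, middle site, coding sequence: uuugaacggUGAAACcgguaaggcu
pdc101, 3′-most site, 3′ UTR: uaacuagauUAAAACggacguuguu
eno101, across the end of the coding sequence: ugcuaaguuUUAAACucugagcaua
gpd3, 5′ site, intron: ugacaugugUCAAACaccugccaag
gpd3, 3′ site, 3′ UTR: cagccguugUUAAACuccaagcuau
adh1, 3′ UTR: gaaucuucaUCAAACcaucucgggg

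On the same assembly, the capitals lie on the minus strand of chromosome I at 102469 to 102474, 102028 to 102033 and 101828 to 101833 for pdc101. The eno101 site is on the plus strand of chromosome II at 2202553 to 2202558. The gpd3 sites are on the plus strand of chromosome II at 578240 to 578245 and 579794 to 579799, and the adh1 site is on the plus strand of chromosome III at 1592618 to 1592623. Of the 5 sites outside the pdc101 coding sequence, the 5′ gpd3 site is within the intron that the annotation places before the coding sequence, and the eno101 site overlaps the last bases of the coding sequence.

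A UNAAAC was present in 40.0% of the 10 spans, in 90.7% of all 5105 mRNAs, in 90.4% of the 2334 other mRNAs within the length range of the 10, and in 80.4% of the 510 other mRNAs that made up the top 10% by WCE level. The 10 mRNAs had a median of 0 sites per kb against 1.65 over all mRNAs. Their GC content was also high, between 43.9% for tpi1 and 50.6% for eno101, with a median of 47.8% against 36.8% over all mRNAs and 40.2% in the abundant group. Of 5080 tested mRNAs, 97.7% had a GC content at or below that of tpi1. The part of base composition in the low number of AU-rich UNAAAC sites was not tested. The short Mei2 motif UUUG, UUGG or UUAG was nearly as frequent as elsewhere, with a median of 14.8 per kb against 17.0, from 6.25 in fba1 to 20.9 in tpi1. These counts describe letters in the annotated span and say nothing of binding.

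Totals were 34415561 to 53703741 counts per library. rRNA features took 79.2% and 82.0% of the TAP-Mmi1 IP, 96.4% and 96.0% of the GFP-Mmi1 IP, and 7.98% to 27.4% of the WCE libraries. The control IP thus had 1248446 and 1373823 counts outside rRNA, and the TAP-Mmi1 IP had 7585245 and 6816082. Levels are therefore given as counts per kb of annotated span per 1000000 counts outside rRNA. At the mmi1 feature itself, the TAP-Mmi1 IP gave 141927 and 33407 counts and the control IP 1455 and 3107, so the replicates with TAP-Mmi1 differed at the tagged gene. At mei2, which is tagged in both strains, the TAP-Mmi1 IP gave 76150 and 35269 counts and the control IP 49920 and 97600. The replicates of both strains thus differed at mei2, and the control IP was not lower there. No source used here describes a spike-in, so a value for an IP library is relative to other features, and how far it depends on the rRNA share is given beside each comparison.

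In the extracts, the 10 mRNAs stood among the most abundant of the cell. Together they made up 2.59% and 2.76% of the counts outside rRNA of the TAP-Mmi1 WCE, and 2.55% and 2.37% of those of the GFP-Mmi1 WCE. The control IP held nearly the same share, 2.46% (95% Wilson interval 2.43 to 2.49) and 2.14% (2.11 to 2.16). The TAP-Mmi1 IP held 0.298% (0.294 to 0.302) and 0.337% (0.333 to 0.341), below every other library. The intervals cover counting error only. Of all counts including rRNA, the shares were 0.0621% and 0.0608% for the TAP-Mmi1 IP and 0.0890% and 0.0853% for the control IP, still lower with TAP-Mmi1 but by a much smaller step. With 2 libraries against 2, an exact two-sided permutation test cannot go below 0.33, and none was run on the shares.

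In the 4 WCE libraries tdh1 had the highest mean level, 3287 ± 407 (SD, n = 4), and ranked 4 among the mRNAs. It was followed by pdc101 with 2793 ± 95.1 at rank 7, fba1 with 2417 ± 217 at rank 9, eno101 with 2193 ± 187 at rank 11 and adh1 with 1962 ± 98.5 at rank 12. Below them stood pgk1 with 1479 ± 47.7 at rank 20 and gpm1 with 1345 ± 149 at rank 24, the only neighbours that differed by less than the larger of their SDs. pyk1 had 874 ± 57.6 at rank 45, tpi1 497 ± 35.1 at rank 121 and gpd3 282 ± 114 at rank 250. The span of gpd3 includes an intron, and over its annotated exons the level was 392. Each SD spans both strains, whose extracts are compared further on, and so mixes strain and replicate differences. The order is that of the means. In replicate 2 of the GFP-Mmi1 WCE, adh1 lay above eno101, with 2013 against 1999.8.

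**Figure D1:**
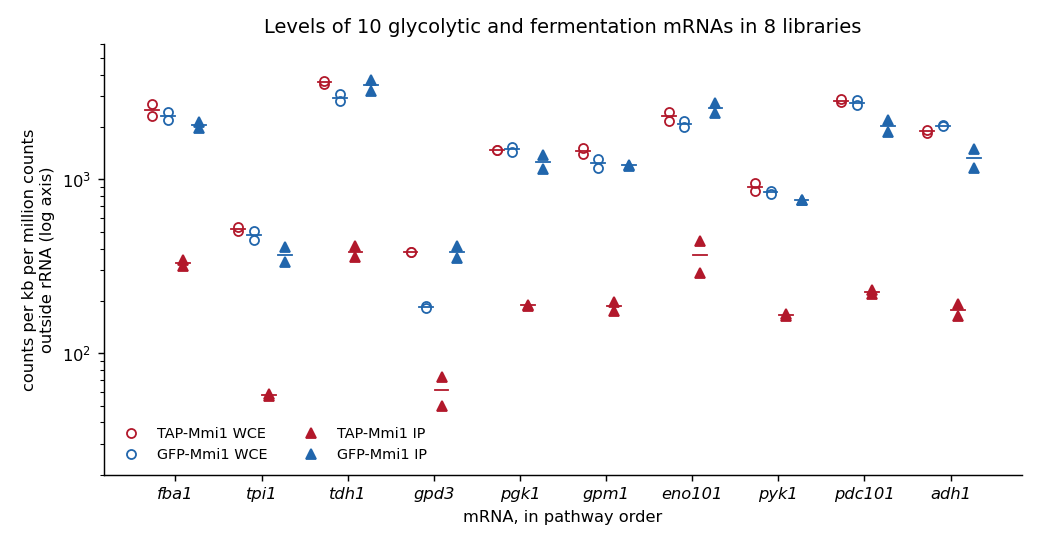
Levels of the 10 mRNAs in each library, in counts per kb of annotated span per 1000000 counts outside rRNA on a log axis, with mRNAs in pathway order. Open circles are WCE, filled triangles are IP, red is TAP-Mmi1, blue is GFP-Mmi1, and a short line marks the mean of 2 replicates. Each red triangle lies below the other 6 points of its mRNA, and the blue triangles lie near the circles except for gpd3, where they lie at 412 and 354 beside a GFP-Mmi1 WCE of 186 and 181.

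The upper steps of the pathway begin with fba1, which encodes the aldolase that cleaves fructose-1,6-bisphosphate. Its level was 319 and 345 for TAP-Mmi1 IP, 2142 and 1967 for GFP-Mmi1 IP, 2325 and 2700 for TAP-Mmi1 WCE and 2452 and 2190 for GFP-Mmi1 WCE. The TAP-Mmi1 IP stood apart from the other 3 groups, whose values lay close together. tpi1, the triosephosphate isomerase that interconverts the products of aldolase, had levels of 58.0 and 57.0 for TAP-Mmi1 IP, 406 and 333 for GFP-Mmi1 IP, 505 and 529 for TAP-Mmi1 WCE and 507 and 447 for GFP-Mmi1 WCE. With TAP-Mmi1 its values lay between those of the gpd3 replicates, 49.5 and 72.9.

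tdh1 and gpd3 both encode glyceraldehyde-3-phosphate dehydrogenase, the step that yields NADH. tdh1 had levels of 356 and 412 for TAP-Mmi1 IP, 3721 and 3217 for GFP-Mmi1 IP, 3554 and 3693 for TAP-Mmi1 WCE and 3082 and 2820 for GFP-Mmi1 WCE. It had the highest mean level of the 10 in each of the 4 groups, though in replicate 2 of the TAP-Mmi1 IP eno101 lay above it, with 439 against 412. gpd3 had 49.5 and 72.9 for TAP-Mmi1 IP, 412 and 354 for GFP-Mmi1 IP, 380.0 and 382 for TAP-Mmi1 WCE and 186 and 181 for GFP-Mmi1 WCE. Its TAP-Mmi1 extracts lay above its GFP-Mmi1 extracts, and its control IP reached the level of the former. The coding sequences of the pair were 92.9% identical, with an identical run of 203 bases. Of all 75-base windows, the read length, 88.6% of tdh1 and 91.5% of gpd3 occurred once in the genome, against 100% in the other 8 mRNAs, so some reads of this pair could have been counted for either gene.

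pgk1 encodes phosphoglycerate kinase, which makes the first ATP of the lower pathway. Its level was 188 and 189 for TAP-Mmi1 IP, 1385 and 1145 for GFP-Mmi1 IP, 1471 and 1472 for TAP-Mmi1 WCE and 1543 and 1428 for GFP-Mmi1 WCE. gpm1, the phosphoglycerate mutase, had 176 and 198 for TAP-Mmi1 IP, 1197 and 1205 for GFP-Mmi1 IP, 1399 and 1517 for TAP-Mmi1 WCE and 1300.2 and 1166 for GFP-Mmi1 WCE. It shares 30 bases, 3.79% of its span, with mug106 on the same strand, which had 2667 to 4794 WCE counts against 29713 to 50978 for gpm1. Neither gpm1 nor any of the other 9 overlapped a listed antisense feature.

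eno101 encodes the enolase that forms phosphoenolpyruvate. Its level was 291 and 439 for TAP-Mmi1 IP, 2759 and 2393 for GFP-Mmi1 IP, 2159 and 2449 for TAP-Mmi1 WCE and 2162 and 1999.8 for GFP-Mmi1 WCE. With gpd3 it had the widest spread between the TAP-Mmi1 IP replicates. pyk1, the pyruvate kinase, had 164 and 169 for TAP-Mmi1 IP, 756 and 763 for GFP-Mmi1 IP, 857 and 957 for TAP-Mmi1 WCE and 859 and 823 for GFP-Mmi1 WCE. It showed the smallest fall of the 10.

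The fermentation steps are pdc101, the pyruvate decarboxylase, and adh1, the alcohol dehydrogenase. pdc101 had levels of 219 and 231 for TAP-Mmi1 IP, 2205 and 1864 for GFP-Mmi1 IP, 2791 and 2879 for TAP-Mmi1 WCE and 2842 and 2661 for GFP-Mmi1 WCE. Its mean in the TAP-Mmi1 IP was 12.6-fold below that in the matching WCE, the widest gap of the 10. adh1 had 191 and 165 for TAP-Mmi1 IP, 1500.2 and 1167 for GFP-Mmi1 IP, 1839.8 and 1930.3 for TAP-Mmi1 WCE and 2065 and 2013 for GFP-Mmi1 WCE. On this scale, all 10 mRNAs were lower in both TAP-Mmi1 IP libraries than in both control IP libraries, where 32.8% of the features tested were, with mean levels 4.56-fold (pyk1) to 9.05-fold (pdc101) apart. All 10 were also lower in both than in both of their own WCE libraries, where 54.0% of the features were.

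The ratio of IP to WCE counts, as deposited and without scaling, is the quantity in the selection rule that the study states for its transcripts. Per 100 WCE counts, tdh1 gave 1.65 and 2.10 IP counts for TAP-Mmi1 and 4.49 and 4.87 for GFP-Mmi1. gpd3 gave 2.15 and 3.58 against 8.24 and 8.34, the highest control ratio of the 10. pdc101 gave 1.29 and 1.51 against 2.89 and 2.99. These 3 mRNAs had the lowest quotients of TAP-Mmi1 to control, at 0.345 for gpd3, 0.400 for tdh1 and 0.476 for pdc101. The next were eno101 with 0.567, gpm1 with 0.577, tpi1 with 0.636, adh1 with 0.639, fba1 with 0.658 and pgk1 with 0.667. pyk1 had 0.895, with ratios of 3.15 and 3.31 against 3.28 and 3.95, and was the only mRNA of the 10 whose replicates overlapped between strains.

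The other 9 had both TAP-Mmi1 ratios below both control ratios, a pattern found in 3.00% of the 6898 features that had a ratio. The median quotient of the 10 was 0.607, against 4.39 over all mRNAs, 1.52 in the other 510 abundant mRNAs and 1.05 in the 141 ribosomal protein mRNAs. In the control alone the 10 were not lower than others, with a median ratio of 3.58 per 100 against 2.78 over all mRNAs and 2.89 in the abundant group. With TAP-Mmi1 they had 2.26 against 12.5 over all mRNAs and 4.38 in the abundant group. That rule, a relative SD under 0.3 with TAP-Mmi1 and a mean ratio over 2 times the control, kept 0 of the 10 and 58.9% of the features. With limits of 1.5 or 3 it kept 4347 or 3387 of the 6898 features. It could then keep 0 of the 10 only, since all their quotients were 0.895 or lower. After scaling by counts outside rRNA it kept 0 of the 10 and 1266 features. After scaling by TMM library sizes, which set the typical feature equal between libraries, it kept 0 of the 10 and 1128 features. Both scalings place the 10 lower against the control than library totals do, so these results are no separate support.

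**Figure D2:**
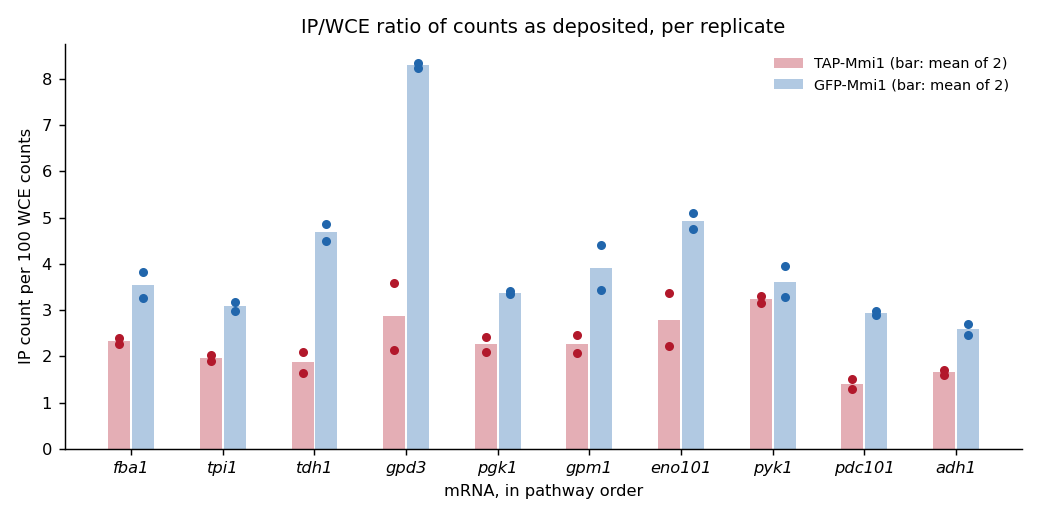
IP counts per 100 WCE counts for the 10 mRNAs in pathway order, with bars at the mean of 2 replicates and points at each replicate, for TAP-Mmi1 (red) and GFP-Mmi1 (blue). For 9 mRNAs both red points lie below both blue points, the gap is widest for gpd3 (2.86 against 8.29 on average), and for pyk1 the points overlap.

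The central comparison asked whether the IP/WCE difference with TAP-Mmi1 differed from that with GFP-Mmi1. All 10 mRNAs fell relative to the typical feature with TMM scaling of the libraries, where 23.7% of the 6827 features tested were lower, and pyk1 changed sign with library totals in its place. The log2 values were -3.86 ± 0.19 (SE) for gpd3, -3.63 ± 0.16 for tdh1, -3.37 ± 0.16 for pdc101, -3.13 ± 0.24 for eno101 and -3.09 ± 0.17 for gpm1. The remaining values were -2.94 ± 0.16 for tpi1, -2.93 ± 0.20 for adh1, -2.90 ± 0.18 for fba1, -2.88 ± 0.15 for pgk1 and -2.46 ± 0.17 for pyk1. Adjusted p-values from edgeR's quasi-likelihood test, for which the threshold was 0.05 throughout, ranged from 2.99e-05 to 6.95e-05. Ordered from the lowest value, the 10 mRNAs stood at ranks 6 (gpd3) to 160 (pyk1) of 5080 mRNAs, with 9 of them within the lowest 73.

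These values depend on how the IP libraries are scaled. With library totals in place of TMM, the median of all features moved from -0.05 to 2.63, and 3 of the 10 mRNAs passed the test as lower, where 0.469% of features were. Those were gpd3 with a log2 value of -1.17, tdh1 with -0.93 and pdc101 with -0.68 (edgeR adjusted p = 0.000429, 0.000435 and 0.00486). The others lay between -0.43 for eno101 and 0.25 for pyk1, which changed sign, and did not pass the test. With counts outside rRNA as the library size, all 10 were lower again, between -3.70 and -2.30, where 18.2% of features were. Under all 3 scalings the 10 lay below the median of all features. A change of scaling moves all features by nearly the same amount, so this position is no separate support.

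**Figure D3:**
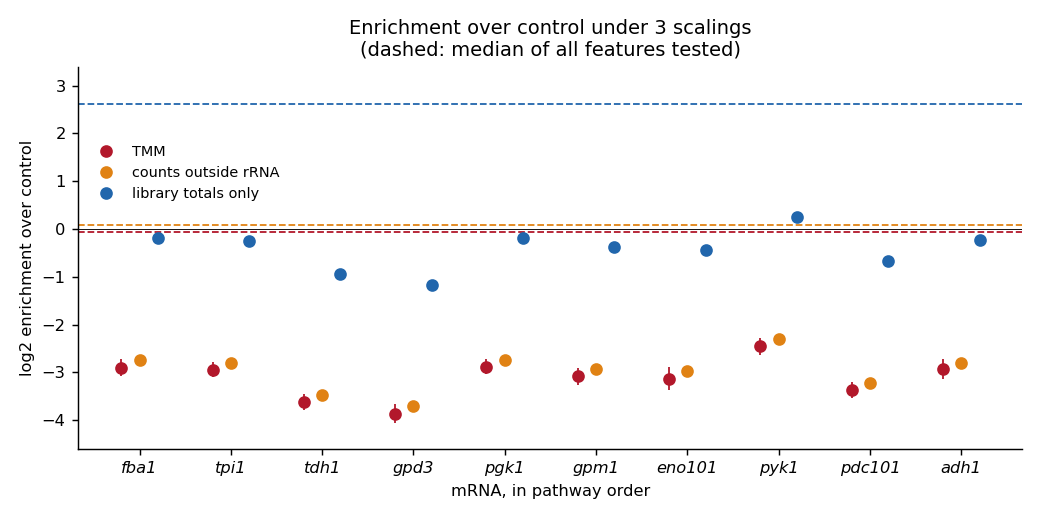
Log2 enrichment over the control of the 10 mRNAs in pathway order under TMM (red, error bars are SE), counts outside rRNA (orange) and library totals (blue), with dashed lines at the median of all features tested under each. Red and orange points lie between -3.86 and -2.30, whereas blue points lie between -1.17 and 0.25, with pyk1 above 0, beneath a dashed blue line at 2.63.

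Other abundant mRNAs were also mostly lower with TMM, where 23.7% of all features were lower and 18.9% higher, and mostly not with library totals, where 0.469% were lower and 89.5% higher. The 141 ribosomal protein mRNAs had a median of -2.22, with 117 lower and 4 higher, but 0.47 with library totals, with 2 lower and 59 higher. The other 510 abundant mRNAs had a median of -1.69, with 433 lower and 9 higher, but 0.99 with library totals, with 7 lower and 330 higher. The median of the 10 was -3.02, and 29 of the 510 abundant mRNAs (5.69%) had values at or below it, while 113 (22.2%) had values at or below that of pyk1. act1, the actin mRNA that served as the reference of the study in RT-qPCR, had -2.58 ± 0.18 (edgeR adjusted p = 5.52e-05). Across the 5080 tested mRNAs, Spearman's rho was -0.46 between WCE level and enrichment, points that share the same WCE counts, and -0.48 between GC content and enrichment. The part of abundance and of base composition in the low values of the 10 was not tested. Enrichment had a median of -0.56 over the 463 mRNAs without a UNAAAC and -0.14 over the 4617 with at least 1. Among the 10, pdc101, with 3 sites, and gpd3, with 2 of which 1 is in the intron, were among the 3 lowest values, and tdh1, the other, had 0 sites. The gpd3 value also holds its rise in the control, 1.54 ± 0.14 for the GFP-Mmi1 IP against its WCE with TMM.

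**Figure D4:**
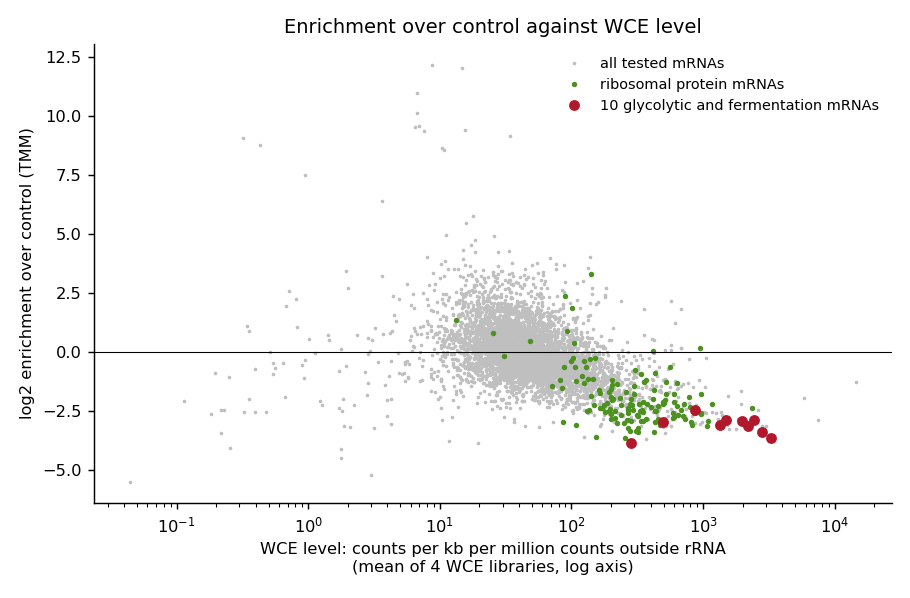
Log2 enrichment over the control (TMM) against WCE level (mean of 4 libraries, counts per kb per 1000000 counts outside rRNA, log axis) for all tested mRNAs (grey), ribosomal protein mRNAs (green) and the 10 glycolytic and fermentation mRNAs (red). The red points run along the lower right edge between -3.86 and -2.46, and gpd3 is the leftmost of them, at a level of 282. With library totals, not drawn, the median of all features is 2.63 and pyk1 lies above 0.

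The parts of this difference were tested in the same fit and share libraries with it, so they are given as values and not as further support. With TAP-Mmi1, all 10 mRNAs were lower after immunoprecipitation than in the extract, with log2 values from -3.33 ± 0.12 (pdc101) to -2.11 ± 0.13 (pyk1), where 30.7% of features were lower. gpd3, the lowest of the 10 in the difference, had -2.32 ± 0.14 here, nearer to pyk1 than to pdc101. With library totals all 10 were lower, from -5.69 to -4.47, and so were 5785 of 6827 features. With counts outside rRNA all 10 were lower, from -3.66 to -2.45, and so were 2631 of 6853 features. In the direct comparison of the immunoprecipitates, all 10 were lower with TAP-Mmi1 than with GFP-Mmi1, from -3.25 ± 0.12 (tdh1) to -2.27 ± 0.13 (pyk1, which had 0.16 with library totals), where 28.8% of features were lower. With library totals, 6 of the 10 were lower in the direct comparison, where 0.835% of features were.

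In the control, 6 of the 10 did not pass the test between IP and WCE. The others, gpd3, eno101, tdh1 and gpm1, were higher in the GFP-Mmi1 IP than in its WCE with TMM, where 11.1% of features were higher, and lower with library totals. Their log2 values were 1.54 ± 0.14, 0.79 ± 0.16, 0.71 ± 0.11 and 0.45 ± 0.12 (edgeR adjusted p = 0.00042, 0.0178, 0.00609 and 0.0369). gpm1 no longer passed with the culture as a replicate block (edgeR adjusted p = 0.0623). The other 6 lay between -0.14 for adh1 and 0.34 for pyk1. This count depended on the scaling, since all 10 were lower with library totals, where 98.2% of features were, and 1 was higher and 2 were lower with counts outside rRNA, where 5.65% and 29.8% were. DESeq2 called 6 as higher, where 16.6% of features were. Fewer of the 4 passed when any 1 WCE library was left out. Over the left-out libraries eno101 lay between 0.59 and 0.80, tdh1 between 0.51 and 0.72 and gpm1 between 0.23 and 0.57. The value of gpd3 lay between 1.38 and 1.55 when any 1 of the 8 libraries was left out.

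Between the extracts, gpd3 was the only mRNA of the 10 past the threshold, and was higher in the TAP-Mmi1 WCE by 1.13 ± 0.13 on the log2 scale (edgeR adjusted p = 0.0185), where 0.293% of features were higher. Its mean level was 2.08-fold higher with TAP-Mmi1, 381 against 184. The call was lost with library totals (adjusted p = 0.0546), with counts outside rRNA (0.103) and when any 1 of the 4 WCE libraries was left out (0.136 to 0.289 by edgeR), while its log2 value stayed between 0.87 and 1.16 in these settings. The other 9 lay between -0.03 for adh1 and 0.37 for tdh1. DESeq2 called tdh1 as well, with 3.91% of features higher. Per 100 tdh1 counts, gpd3 thus had 14.2 and 13.8 (TAP-Mmi1) or 8.05 and 8.54 (GFP-Mmi1) in the extracts. In the IP libraries it had 18.5 and 23.6 (TAP-Mmi1) or 14.8 and 14.6 (GFP-Mmi1). The part of reads shared with tdh1 in these quotients was not tested.

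The mRNAs whose pattern over the 8 libraries came nearest to the mean pattern of the 10, by Euclidean distance of centred log2 CPM, were sam1 (0.145), isp6 (0.219), sks2 (0.220), tim18 (0.226) and tef102 (0.241). Their log2 enrichment lay between -3.27 for tef102 and -3.06 for sks2. The 10 mRNAs themselves lay between 0.178 for gpm1 and 1.37 for gpd3 from their own mean, against a median of 3.23 for the 5070 other mRNAs, of which 345 were nearer than gpd3.

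Other enzymes of carbon metabolism were read from lists of genes chosen by pathway. Of 10 further glycolytic and fermentation enzymes, 4 fell with TMM, where 23.7% of all features did, and 1 rose, where 18.9% did, whereas with library totals 0 were lower, where 0.469% of all features were, and 6 were higher, where 89.5% were. The 4 were pgi1, the glucose-6-phosphate isomerase, with -2.84 ± 0.18, pfk1, the phosphofructokinase, with -2.42 ± 0.14, and the hexokinases hxk1 and hxk2 with -2.05 ± 0.20 and -1.54 ± 0.20. pdc202, a further pyruvate decarboxylase gene, was counted 674 and 459 times with TAP-Mmi1 and 63 and 55 times in the control IP, and rose by 1.33 ± 0.32. Of the paralogs, eno102 had 161 to 298 WCE counts and pdc102 had 6 to 14, and neither passed the test. eno102, pdc102, pdc201, pdc202 and adh4 shared 0 windows of 75 bases with their paralog among the 10.

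The enzymes that branch from the pathway were mostly lower with TMM as well. So were abundant mRNAs in general in the same fit. Of the 510 others, 433 were lower and 9 higher, and of the 141 ribosomal protein mRNAs, 117 were lower and 4 higher. Of 19 such genes, including the pentose phosphate pathway, glycerol and trehalose metabolism, pyruvate dehydrogenase and gluconeogenesis, 16 fell and 0 rose with TMM, where 23.7% and 18.9% of all features did, whereas 0 were lower and 13 higher with library totals, where 0.469% and 89.5% were. The lowest were tal1, the transaldolase, with -3.11 ± 0.15, dak2, a dihydroxyacetone kinase, with -2.77 ± 0.34, and pdb1, a subunit of pyruvate dehydrogenase, with -2.49 ± 0.24. fbp1, the fructose-1,6-bisphosphatase of gluconeogenesis, had -0.11 ± 0.43 and did not pass the test. Of 13 enzymes of the TCA cycle, which oxidises the pyruvate that is not fermented, 11 fell with TMM, where 23.7% of all features did, and 0 with library totals, which put 10 higher, where 89.5% of features were. The lowest with TMM were sdh3 (-2.43 ± 0.28), mdh1 (-2.39 ± 0.18) and sdh1 (-2.38 ± 0.14). Of 8 hexose transporter genes, 3 fell with TMM, where 23.7% of all features did, and 0 with library totals, which put 7 higher, where 89.5% were. The 3 were ght7 with -4.06 ± 1.36, ght8 with -0.90 ± 0.14 and ght6 with -0.50 ± 0.15. The ght7 value rests on 2 to 22 counts per library. Medians were -1.46, -1.68, -1.51 and -0.36 for further glycolysis, branches, TCA cycle and transporters, against -0.05 over all features, and with library totals they were 1.22, 1.01, 1.18 and 2.32 against 2.63, with 0 genes lower in each list.

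**Figure D5:**
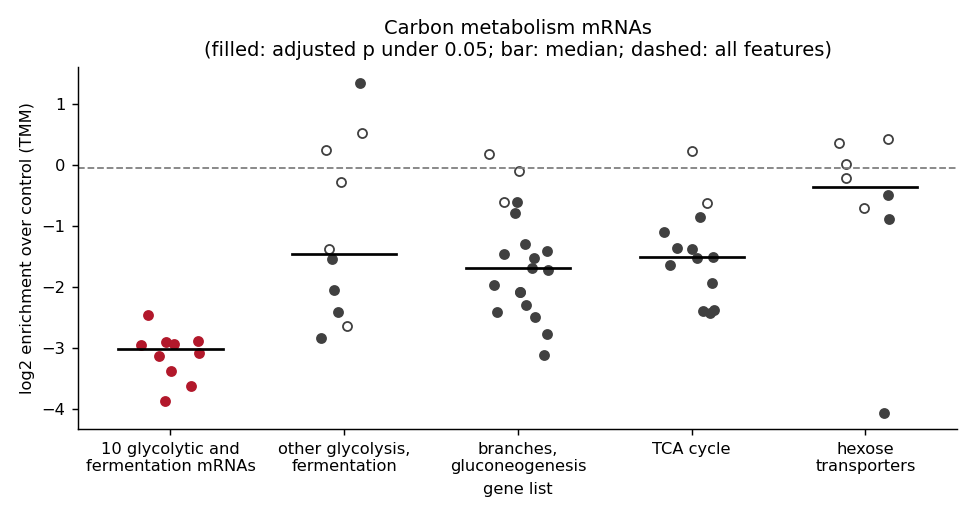
Log2 enrichment over the control (TMM) for each gene of 5 carbon metabolism lists, with filled points past the threshold, black bars at the list median and a dashed line at the median of all features (-0.05). The 10 glycolytic and fermentation mRNAs (red) lie between -3.86 and -2.46, and the other lists reach from -4.06 (ght7) to 1.33 (pdc202). With library totals 0 genes of the other 4 lists were lower and pyk1 lay above 0.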

How the data were processed

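RNA from S. pombe was measured by paired-end 75-base sequencing in 8 libraries, from IP and WCE of 2 strains with 2 biological replicates each. The values used are raw read counts per feature that the authors deposited, made with bcl2fastq 2.18.12, Cutadapt 1.15, Bowtie2 and MulticovBed. The genome build, annotation and strand setting are not given in the sources used here. Groups and replicate numbers came from the sample labels, and a WCE was paired with the IP made from it by strain and number. Each table lists 6974 rows, and a row without a name (0.0018% to 0.055% of counts) was left out. Identifiers were matched to RefSeq on ASM294v3, from which symbols, spans, coordinates and sequences were read, with 6813 features found. Levels are counts per kb of annotated span per 1000000 counts outside the 49 rRNA features. The 10 mRNAs and all lists were chosen with earlier results of these data known, and are no independent support. All 10 mRNAs, the list genes past the threshold with up to 3 highest and 3 lowest per list, act1 and the 5 nearest mRNAs are named. gpm2 and sdh4 found no match by symbol and were not analysed here.

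The test was edgeR 4.0.16 (R 4.3.3), as 1 quasi-likelihood fit of 8 libraries as 4 groups with filterByExpr, TMM and robust spread, and Benjamini-Hochberg adjustment over 6827 features with a threshold of 0.05. edgeR gives no SE here, so each SE was computed by dividing the absolute log2 value by the root of F. The fit was tested on simulated data. Alternatives were library totals, counts outside rRNA, DESeq2 1.42.0, no filter, a replicate block and leaving out each library. Leaving out rRNA features before TMM was chosen after seeing the data. Motifs were searched on the sense strand, without overlaps, with Python 3.11.15 and pandas 2.3.3. IP and WCE deviations of a culture had correlations of 0.083 (TAP-Mmi1) and 0.028 (GFP-Mmi1) over 6827 features. IP libraries had 34415561 to 37797824 counts and WCE libraries 36446618 to 53703741. Intervals cover counting error only and not the spread between replicates, and reads had no molecular identifiers.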

Additional observations from a re-analysis of the deposited data

Results flagged for a closer look

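Each of the 10 mRNAs was noted because its IP/WCE difference was not the same in the 2 strains, by the edgeR test of that difference itself. With TMM the same test put 23.7% of the 6827 features lower and 18.9% higher. As log2 IP/WCE with TAP-Mmi1 minus log2 IP/WCE with GFP-Mmi1 under TMM, the values were -3.86 for gpd3, -3.63 for tdh1, -3.37 for pdc101, -3.13 for eno101, -3.09 for gpm1, -2.94 for tpi1, -2.93 for adh1, -2.90 for fba1, -2.88 for pgk1 and -2.46 for pyk1. With library totals, only gpd3, tdh1 and pdc101 of the 10 passed the same test, where 0.469% of features were lower and 89.5% higher. The value of pyk1 was then 0.25. The rRNA share, 79.2% and 82.0% in the TAP-Mmi1 IP against 96.4% and 96.0% in the control IP, moved with this contrast, and its part in the values was not tested.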

How the results depend on the processing

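Under DESeq2, counts outside rRNA, no filter, the replicate block and rRNA features left out before TMM, the 10 fell in enrichment over the control. In these settings they also fell in the TAP-Mmi1 IP against its WCE and against the control IP. Over the left-out libraries, log2 enrichment lay between -4.08 and -2.25. The TAP-Mmi1 IP then lay between -3.37 and -2.04 against its WCE and between -3.29 and -2.14 against the control IP. Lower in enrichment were 1778 of 6827 features with DESeq2, 1247 of 6853 with counts outside rRNA and 1625 of 6934 without the filter. Library totals changed the result for the 10: 3 members were lower in enrichment, where 0.469% of features were. Between the immunoprecipitates 6 were lower, where 0.835% were, and pyk1 reversed in both comparisons (0.25 and 0.16). In the GFP-Mmi1 IP against WCE, 4 members were higher, against 0 higher and 10 lower with library totals and 1 higher and 2 lower with counts outside rRNA, and 1 to 5 were higher over the left-out libraries. There, library totals reversed tdh1 (-4.34), pdc101 (-5.01), fba1 (-4.75), eno101 (-4.27), pgk1 (-4.81), gpm1 (-4.61), pyk1 (-4.72), tpi1 (-4.94) and gpd3 (-3.51), in a setting that put the median of all features at -5.05. Counts outside rRNA reversed pdc101 (-0.44), fba1 (-0.18), pgk1 (-0.23), gpm1 (-0.038), pyk1 (-0.15) and tpi1 (-0.37). Over the left-out libraries pdc101 ranged from -0.15 to 0.047 and tpi1 from -0.12 to 0.13. Between the extracts, gpd3 was the 1 member higher, against 0 with library totals, 0 with counts outside rRNA and 2 with DESeq2. Its call was lost when a WCE library was left out. Values between the extracts that had not passed the test changed sign in some settings. With library totals these were pdc101 (-0.15), fba1 (-0.084), eno101 (-0.049), pgk1 (-0.20), pyk1 (-0.086) and tpi1 (-0.077). pgk1 also changed sign with counts outside rRNA (-0.014) and over the left-out libraries (-0.0078 to 0.13). The replicate block, with the culture or the number as a term, left 10 members lower in enrichment, where 1424 of 6827 features were. It left 3 higher in the GFP-Mmi1 IP against WCE, where 560 of 6827 features were. In that comparison gpm1 lost its call (edgeR adjusted p = 0.0623), and no other call changed. The share of counts taken by the 10 members moved with the denominator, from 0.0614% to 0.318% in the TAP-Mmi1 IP, 0.0872% to 2.30% in the GFP-Mmi1 IP, 2.11% to 2.68% in the TAP-Mmi1 WCE and 2.22% to 2.46% in the GFP-Mmi1 WCE, when rRNA was left out. Where a library left a group with 1 sample, that sample was assumed to vary like the other groups. Except for the scalings, whose construction shows the shift, the cause of these changes was not tested.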
